A study of Mus musculus with 3 samples.

Results

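The unfolded protein response and the secretory chaperones it controls were described through 36 genes, chosen by symbol from the count table: sensors of stress in the endoplasmic reticulum (ER), their effectors, ER chaperones and the COPII coat that carries cargo out of the ER. All 36 were found among the 46983 genes of the table, each on 1 row, and all 36 passed the filter on low counts that left 14409 genes for testing. The RNA came from mouse leptomeninges, the inner membranes over the brain, which were microdissected, dissociated and sorted by flow cytometry. The labels call the samples a pia-enriched fraction of vehicle-treated mice and number them 1 to 3, with a library each. Strain, genotype, age, the vehicle and the markers used for sorting are not given in the sources used here, nor is it said whether a library came from 1 animal or a pool. With 1 group there was no treatment comparison: every result below is a level, or a difference between replicate libraries, which may be technical. The p-values ask only whether a gene varied more between these libraries than tested genes of similar level did.

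Secreted proteins fold in the ER. When unfolded proteins build up there, the sensor Ern1 (IRE1) splices the Xbp1 messenger, Eif2ak3 (PERK) slows translation and favours Atf4, and Atf6 moves to the Golgi, where it is cut to release a transcription factor. These branches raise chaperones, folding enzymes and the machinery that removes misfolded proteins from the ER. Fibroblasts, the collagen-producing cells of the meninges, carry a heavy secretory load, and procollagen needs both ER chaperones and enlarged COPII carriers. Counts per gene do not tell spliced from unspliced Xbp1 messenger and do not measure protein.

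The elements bound by these factors are known as short sequences, and they were searched on both strands in the RefSeq promoter windows of GRCm38.p6, 250 bases before to 50 bases after each start. A window was present for 32 of the 36 genes. The ER stress response element (ERSE, CCAAT and CCACG set 9 bases apart), bound by Atf6 and spliced Xbp1 together with NF-Y, stood in the windows of 8 genes (25%), against 0.119% of all 32851 windows. They were Hspa5, Hsp90b1, Calr, Canx, Pdia6, Dnajc3, Creld2 and Syvn1, and Hsp90b1 held 2 matches that do not overlap. The related ERSE-II (ATTGG and CCACG set 1 base apart) stood in 2 genes, Herpud1 and Dnajb11, against 0.0365% of windows. With 1 mismatch allowed in the fixed letters, an ERSE was found in 14 of the 32 genes (43.8%) and in 1.50% of all windows. The C/EBP-ATF response element (CARE, searched as TGATGNAA), which Atf4 binds, stood in Chac1, Trib3, Asns and Herpud1 (12.5%, against 3.97% of windows). The UPRE core (TGACGTGG) stood in Sec23a and Sec24d (6.25%, against 0.676%). A match is a run of letters, not a measured binding site. The 36 genes were chosen as parts of this response and the chaperones it controls. The shares above therefore describe the chosen genes and are not a test. The exact ERSE matches and the ERSE-II match of Herpud1 are shown, all of which lie before the start. They were chosen because the ERSE was found in more members than the other elements. Capitals mark the element and lower case the 10 bases on either side, on the gene's own strand, so that an element on the opposite strand reads as its reverse complement.
Hspa5, chr2:34772015-34772053, plus strand: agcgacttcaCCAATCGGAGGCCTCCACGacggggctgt
Hsp90b1, chr10:86705628-86705666, minus strand: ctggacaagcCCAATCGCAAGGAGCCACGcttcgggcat
Hsp90b1, chr10:86705523-86705561, minus strand: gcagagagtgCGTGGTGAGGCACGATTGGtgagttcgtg
Calr, chr8:84847065-84847103, minus strand: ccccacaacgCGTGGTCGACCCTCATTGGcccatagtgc
Canx, chr11:50325790-50325828, minus strand: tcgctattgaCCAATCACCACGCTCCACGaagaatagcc
Pdia6, chr12:17266481-17266519, plus strand: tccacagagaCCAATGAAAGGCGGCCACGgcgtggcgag
Dnajc3, chr14:118937817-118937855, plus strand: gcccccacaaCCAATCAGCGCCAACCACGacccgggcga
Creld2, chr15:88819510-88819548, plus strand: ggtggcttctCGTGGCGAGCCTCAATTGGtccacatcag
Syvn1, chr19:6046522-6046560, plus strand: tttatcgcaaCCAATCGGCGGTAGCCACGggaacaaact
Herpud1, chr8:94386367-94386397, plus strand: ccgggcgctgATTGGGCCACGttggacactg

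The 250 bases before the start are given for the 2 main ER chaperones of the Hsp70 and Hsp90 classes, whose counts varied differently between libraries as described below, with exact ERSE matches in capitals.
Hspa5, chr2:34771840-34772089, plus strand: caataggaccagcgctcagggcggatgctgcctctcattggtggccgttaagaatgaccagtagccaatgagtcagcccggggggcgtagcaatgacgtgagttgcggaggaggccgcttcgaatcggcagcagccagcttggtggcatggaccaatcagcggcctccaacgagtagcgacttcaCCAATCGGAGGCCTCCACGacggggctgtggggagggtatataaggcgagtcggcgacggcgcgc
Hsp90b1, chr10:86705445-86705694, minus strand: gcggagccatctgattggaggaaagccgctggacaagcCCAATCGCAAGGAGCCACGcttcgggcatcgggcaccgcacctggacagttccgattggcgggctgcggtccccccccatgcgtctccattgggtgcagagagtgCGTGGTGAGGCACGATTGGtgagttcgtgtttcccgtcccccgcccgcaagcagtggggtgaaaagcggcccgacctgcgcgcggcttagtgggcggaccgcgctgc

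**Figure D1:**
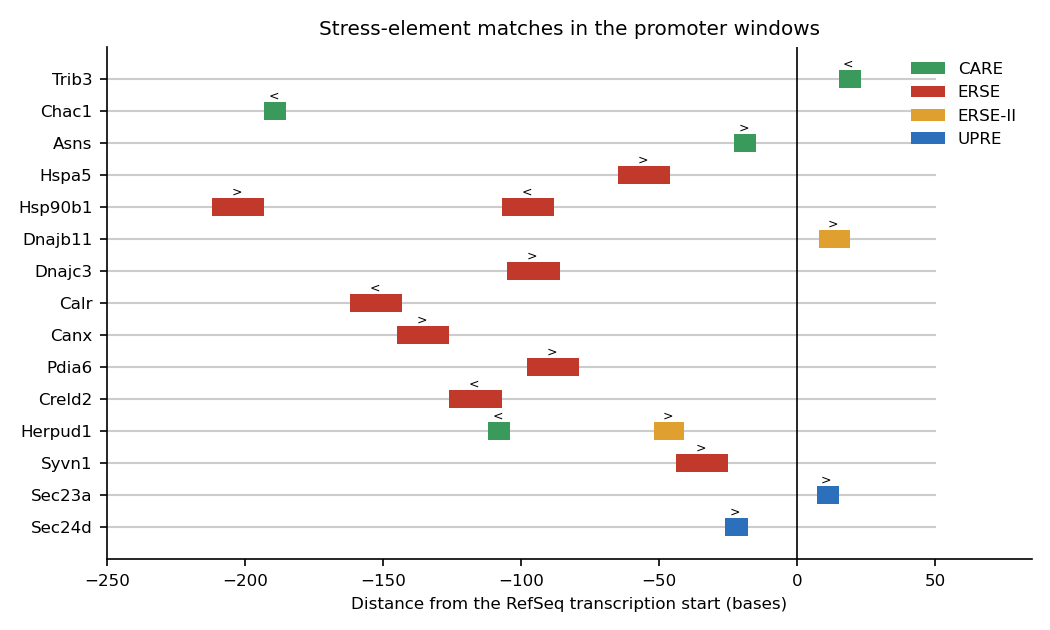
Positions of exact element matches in the promoter windows of 15 genes, in bases from the RefSeq transcription start (vertical line at 0); arrowheads give the strand of the match relative to the gene. The 9 ERSE matches of 8 genes (red) all lie before the start, and Hsp90b1 carries 2.

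The libraries held 21002860, 28704952 and 25338616 gene counts. Library sizes were scaled by the TMM method of edgeR, and levels are counts per 1000000 scaled counts (CPM); levels of different genes were compared per kilobase of annotated exon, and where genes of a list were picked by mean CPM, which favours long transcripts, that is said beside them. On the scaled sizes a count of 0 allowed up to 0.152, 0.101 and 0.116 CPM (3 counts, counting error only), well below every member. Fibroblast markers fixed for the label were abundant, though not equally so in each library. Col1a2 was at 11071, 12570 and 10851 CPM, Col3a1 at 2154, 4316 and 3907 CPM and Pdgfra, the lowest, at 125, 148 and 131 CPM. Library 1 was lowest for 4 of these 6 genes and highest for 1, against 40.4% and 39.6% of all tested genes. Library 1 stood apart from the other two by base composition and by its share of mitochondrially encoded counts, which was 0.918%, 3.60% and 3.46% in libraries 1, 2 and 3. The part of that share in the differences of library 1 given below was not tested. Spearman's rho between GC content and the difference of library 1 from libraries 2 and 3 was 0.608 over 14375 genes and 0.597 over the 36 members, across genes that share libraries and are not replicates. Values for library 1 are therefore also given after smooth trends with GC content and exon length were removed from each library, an estimate that could itself take out real differences.

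The 36 genes took 1.18%, 1.19% and 1.27% of gene counts in libraries 1, 2 and 3 (1.22% ± 0.049, SD, n = 3). Their median level was 2.79 ± 0.18 above the median of all tested genes on the log2(CPM + 1) scale, and 31 of the 36 lay above that median. Counts were concentrated: the 5 members with the most counts took 55.2% of the members' counts on average, and Hspa5 alone took 20.3%, 18.2% and 21.3%. Per kilobase, levels spanned 462-fold, from Hspa5 at 575 ± 69.9 to Chac1 at 1.24 ± 0.309 CPM per kilobase. Of the 35 neighbour pairs in that order, 32 overlapped within 1 SD. The gaps that did not were those between Calr and P4hb, between Eif2ak3 and Ern1, and between Ern1 and Chac1. So by this rule, which does not pair values of the same library, the order below Calr had few separated steps. Neighbours that overlap can still keep their order in every library, as Pdia6 and Pdia4 did.

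**Figure D2:**
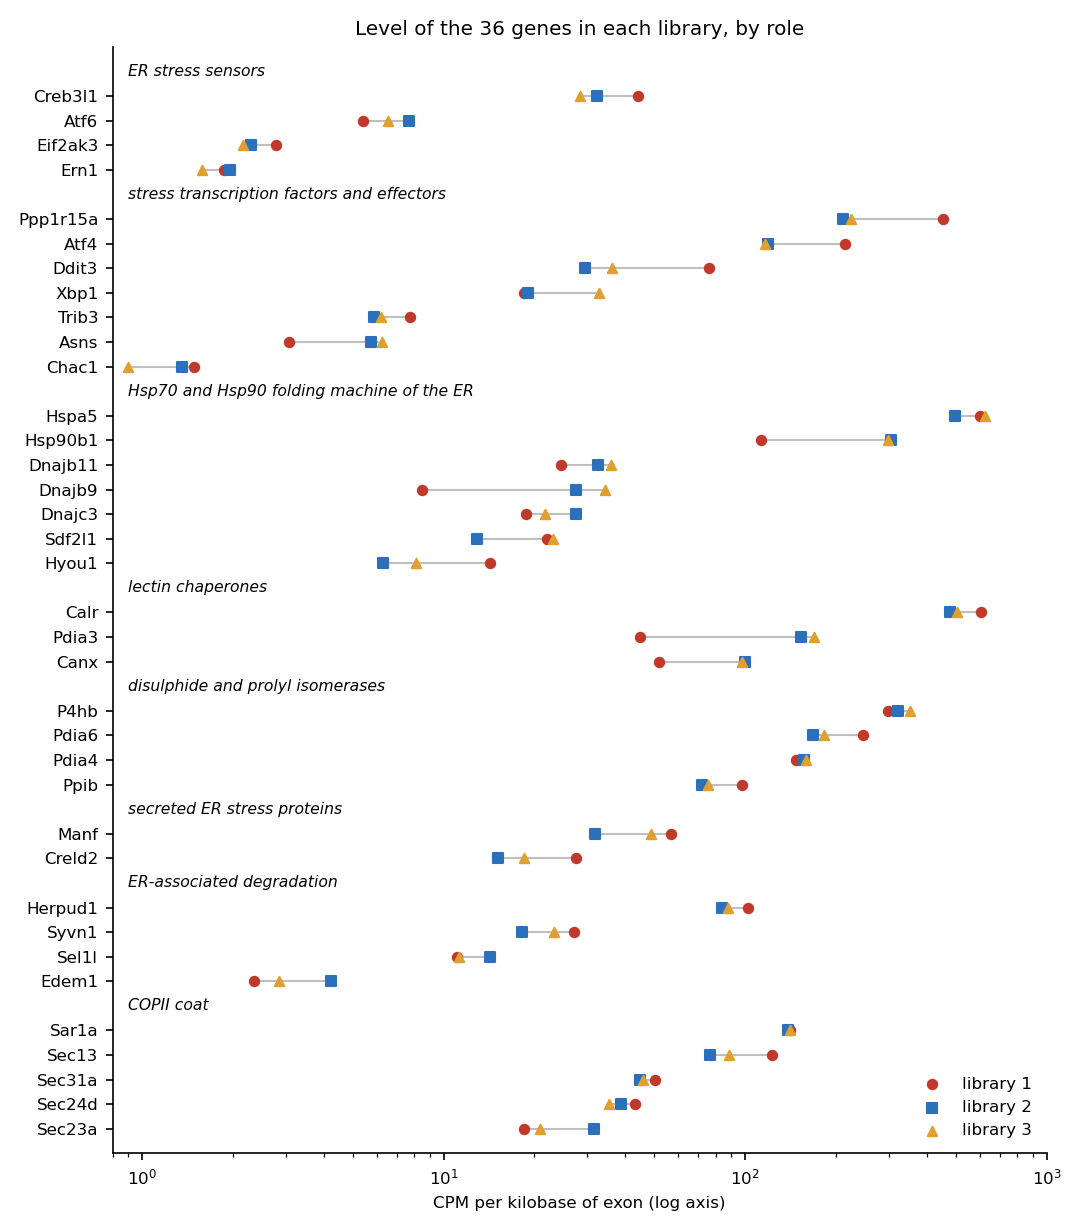
Level of each of the 36 genes in CPM per kilobase of exon (log axis), by role; each point is 1 library and the grey line spans the 3. Folding enzymes and chaperones such as Hspa5 (575 on average), Calr (530) and P4hb (324) lie far above the sensors Atf6 (6.54), Eif2ak3 (2.42) and Ern1 (1.80).

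The classical sensors varied less than the typical tested gene, and Ern1 and Eif2ak3 were present at low levels. Ern1, the kinase and RNase that splices Xbp1, was at 15.3, 16.0 and 12.9 CPM in libraries 1, 2 and 3. Eif2ak3, the kinase that phosphorylates eIF2α, was at 16.8, 13.8 and 13.1 CPM. Atf6 was at 50.0, 70.7 and 60.5 CPM. Per kilobase Ern1 lay at percentile 33.1 of tested genes, Eif2ak3 at 39.9 and Atf6 above the middle, at 63.5. The coefficient of variation of these 3 genes was 11.0%, 13.4% and 17.1%, against a median of 27.8% over all tested genes. Creb3l1 (OASIS) is an ER-membrane transcription factor of the Atf6 kind that is known to drive collagen gene expression in bone. Creb3l1 was at 115, 84.1 and 73.6 CPM, highest in library 1, with a difference of 0.54 from the others on the log2 scale. With GC content and length trends removed it was at 93.6, 99.1 and 76.9 CPM, highest in library 2, and the difference was 0.10. Per kilobase Creb3l1 stood at 34.9 ± 8.30, well above Atf6 at 6.54 ± 1.12, and the libraries of the pair did not overlap. Ern2 (IRE1β), an epithelial paralogue of Ern1, had 0 counts in every library.

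Among the transcription factors and effectors of the integrated stress response, the arm that acts through eIF2α and Atf4, Ppp1r15a (296 ± 136), Atf4 (150 ± 55.7) and Ddit3 (47.3 ± 25.2) had the highest levels in CPM per kilobase. Ppp1r15a (GADD34), which recruits the phosphatase that restores eIF2α, was at 1331, 620 and 657 CPM. Atf4 was at 506, 282 and 275 CPM. Ddit3 (CHOP), a transcription factor induced downstream of Atf4, was at 130, 50.5 and 62.1 CPM. In each of the 3, library 1 lay above both other libraries, which were close to one another. The difference of library 1 from the mean of the other libraries on the log2 scale was 1.06 for Ppp1r15a, 0.86 for Atf4 and 1.20 for Ddit3, and none passed the test described below. The ratio of Ppp1r15a to Atf4 counts was 2.63, 2.20 and 2.39 in the 3 libraries, and with GC content and length trends removed 2.67, 2.17 and 2.39. The ratio of Ddit3 to Atf4 counts was 0.258, 0.179 and 0.226, but spread to 0.352, 0.148 and 0.201 with the trends removed. With the trends removed, the differences of library 1 became 0.64 for Ppp1r15a, 0.40 for Atf4 and 1.42 for Ddit3. Ddit3 shares 105 exonic bases on its own strand and 81 on the opposite strand with other annotated genes, so part of its reads could be discarded or assigned elsewhere. Among other members, 485 exonic bases of Eif2ak3, 431 of Sec23a and 312 of Manf overlap genes on the opposite strand. The strand setting of the counting is not given, so the same could hold for these genes.

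Other targets of Atf4 had smaller differences in that direction, or one in the opposite direction. Trib3, a pseudokinase, was at 16.5, 12.5 and 13.2 CPM, and Chac1, which degrades glutathione, was the lowest member at 2.43, 2.22 and 1.47 CPM. Asns, the asparagine synthetase, was at 8.39, 15.7 and 17.1 CPM, lowest in library 1. All 3 genes hold a CARE match, yet their differences of library 1 from the others were 0.34, 0.28 and -0.89, and -0.11, -0.09 and -0.80 with the trends removed. Xbp1 was at 60.1, 62.1 and 107 CPM, so that library 3 stood above the other 2 by 1.78-fold and 1.72-fold. With the trends removed it was at 52.1, 68.0 and 112 CPM. The difference of library 1 from the others moved from -0.43 to -0.73, so libraries 1 and 2 were then less alike. On the counts as deposited and without library 1, Xbp1 was the single member with an unadjusted p below 0.05 (0.0492; edgeR goodness of fit, adjusted p = 0.885).

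Gene positions here are those of GENCODE M21 on GRCm38. Of the Hsp70 and Hsp90 folding machine, Hspa5 (BiP; ENSMUSG00000026864.13, chromosome 2, 34771970 to 34777547), the main Hsp70 of the ER and the brake on all 3 sensors, had the highest level per kilobase of the members, as above. It was at 2548, 2094 and 2650 CPM (2431 ± 296, SD, n = 3). Hsp90b1 (GRP94; ENSMUSG00000020048.13, chromosome 10, 86690209 to 86705509), the ER Hsp90, was at 456, 1231 and 1201 CPM. Library 1 was thus low for Hsp90b1 by 2.70-fold and 2.64-fold but not for Hspa5, and the ratio of Hsp90b1 to Hspa5 counts was 0.179, 0.588 and 0.453. Removal of the trends narrowed this to 0.220, 0.515 and 0.421. The GC content of the longest transcript was 42.1% for Hsp90b1 and 45.6% for Hspa5. Hsp90b1 shares 217 exonic bases on its own strand and 415 on the opposite strand with other annotated genes, and Hspa5 shares none. Part of the Hsp90b1 reads could therefore be discarded or assigned elsewhere.

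The co-chaperones of BiP also went different ways. Dnajb9 (ERdj4) was at 21.6, 70.1 and 87.2 CPM, lowest in library 1, and its transcript had the lowest GC content of the module, 40.6%. Hyou1 (GRP170), the nucleotide exchange factor, was at 103, 45.7 and 58.6 CPM, highest in library 1. Dnajb11 (ERdj3) was at 79.2, 105 and 116 CPM and Dnajc3 (p58IPK) at 96.5, 141 and 112 CPM. Sdf2l1, a partner of Dnajb11, was at 24.4, 14.3 and 25.6 CPM, lowest in library 2. In this group 4 of 7 genes were lowest in library 1 and 1 was highest there, against 40.4% and 39.6% of all tested genes. With the trends removed library 1 was lowest for 4 and highest for 3, against 5401 and 5514 of all 14409 tested genes.

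In the lectin cycle, which folds proteins bearing N-linked sugars, the soluble Calr and the membrane-bound Canx bind the same glycans, and Pdia3 (ERp57; ENSMUSG00000027248.13, chromosome 2, 121413775 to 121438687) is the oxidoreductase that works with both. Calr was at 1750, 1373 and 1458 CPM. Canx was at 244, 468 and 457 CPM, and Pdia3 at 140, 483 and 530 CPM. Libraries 2 and 3 were therefore alike for all 3 genes, while library 1 was the highest for Calr and the lowest for its partners. The ratio of Calr to Canx counts was 7.19, 2.93 and 3.19, and with the trends removed 4.65, 3.90 and 3.71. Pdia3 kept its distance: its difference of library 1 from the other libraries was -1.84 on the log2 scale as deposited and -1.64 with the trends removed. Its GC content was 46.9%, against a median of 49.8% over tested genes, and the median difference of 1524 tested genes within 1 percentage point of it was -0.22.

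No other disulphide isomerase among the members differed in library 1 as much as Pdia3. P4hb (PDI), which also serves as the beta subunit of collagen prolyl 4-hydroxylase, was at 855, 918 and 1008 CPM. It was lowest in library 1, like Pdia3, and stayed so at 721, 1027 and 1069 CPM with the trends removed. Its difference of library 1 from the others was -0.17 as deposited and -0.54 with the trends removed. Pdia6 was at 920, 631 and 682 CPM, highest in library 1. Pdia4 (ERp72) was at 355, 376 and 382 CPM, a coefficient of variation of 3.84%. As a ratio to Pdia3, Pdia6 was at 6.56, 1.31 and 1.29, and P4hb at 6.10, 1.90 and 1.90. After removal of the trends the ratio was 6.07, 1.38 and 1.32 for Pdia6 and moved to 4.69, 2.26 and 2.08 for P4hb, with library 1 still highest. Ppib (cyclophilin B), the prolyl isomerase of the collagen-modifying complex, was at 324, 239 and 248 CPM. Its level per kilobase depends on the annotation: 81.8 ± 14.1 over all annotated exons, of which 825 bases overlap a gene on the opposite strand, but 303 ± 52.2 over its principal transcript. Sec13 likewise moved from 95.7 ± 23.9 to 225 ± 56.3, whereas Hspa5 and Calr held the first 2 places under both lengths, in exchanged order.

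Manf and Creld2 are small ER proteins that are secreted under stress. Manf was at 200, 112 and 172 CPM and Creld2 at 37.6, 20.7 and 25.2 CPM, in both cases highest in library 1 and lowest in library 2. The genes of ER-associated degradation differed less in sum than singly. Herpud1, which assembles the retrotranslocation complex, was at 238, 196 and 204 CPM, and Syvn1 (HRD1), the ubiquitin ligase, at 131, 88.5 and 113 CPM. Sel1l, its adaptor, was at 94.7, 122 and 96.2 CPM. Edem1, which hands misfolded glycoproteins to the complex, was at 15.2, 27.4 and 18.4 CPM. Summed over these 4 genes, libraries 1, 2 and 3 held 479, 434 and 432 CPM.

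In the COPII coat, Sar1a, the GTPase that starts the coat, was at 526, 520 and 528 CPM, a coefficient of variation of 0.836% (SD 4.39 CPM). That evenness depended on the scaling: the SD was 25.7 CPM with plain library totals and 47.4 CPM with the trends removed, which put Sar1a at 579, 487 and 512 CPM. The smallest range among members was then that of Pdia4, 0.030 on the log2 scale. Sec31a, of the outer coat, was at 396, 353 and 363 CPM, and its partner Sec13 at 390, 243 and 281 CPM. Sec24d, a cargo adaptor needed for procollagen export in cartilage, was at 273, 246 and 224 CPM. Sec23a, the other inner coat subunit, whose loss also impairs collagen export, was at 89.4, 152 and 101 CPM. Both inner coat genes hold a UPRE match, and they were not highest in the same library.

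Differences between libraries were tested with edgeR's goodness-of-fit test across all 14409 genes with Benjamini-Hochberg adjustment. The test called 63 genes (0.437%) and 0 of the 36 members. Because its dispersion was estimated from the same 3 libraries, a gene that was not called can still differ between them. At an unadjusted p below 0.05 the members counted 2, Pdia3 (unadjusted p = 0.00676; edgeR adjusted p = 0.314) and Dnajb9 (unadjusted p = 0.00978; edgeR adjusted p = 0.368), while 1015 of all tested genes (7.04%) did. On the log2(CPM + 1) scale the range over libraries exceeded 1 in 6 members (16.7%), against 26.1% of tested genes. They were Dnajb9, Pdia3 and Hsp90b1, lowest in library 1, and Ddit3, Hyou1 and Ppp1r15a, highest there. Asns, at 2.04-fold between libraries 3 and 1 in CPM, had a range of 0.95 on that scale. With the trends removed, the ranges of Dnajb9, Pdia3 and Ddit3 stayed above 1. Those of Hsp90b1 (0.65), Ppp1r15a (0.65) and Hyou1 (0.98) fell below 1, and that of Xbp1 rose to 1.09. With 3 libraries and a common biological coefficient of variation of 0.372, differences of this size were not distinguishable from the spread of tested genes. With GC content and length trends removed the test called 108 genes (0.75%), again with 0 members among them, and Pdia3 and Ddit3 were the 2 members with an unadjusted p below 0.05.

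Libraries 2 and 3 lay closer to each other than to library 1. The median absolute difference of library 1 from the other libraries was 0.42 over the members and 0.45 over all tested genes. The median absolute difference between libraries 2 and 3 was 0.17 over the members and 0.28 over all tested genes. Library 1 was highest in 18 members and lowest in 14, so there was no common direction for the module. With the trends removed, the sign of the difference turned for 9 of 36 members (25%), against 23.6% of tested genes. These were Atf6, Trib3, Chac1, Dnajc3, Sdf2l1, Herpud1, Sel1l, Sec23a and Sec31a, so their direction depends on that step. Canx moved from -0.92 to -0.09, Hsp90b1 from -1.41 to -0.59 and Dnajb9 from -1.81 to -0.87. Hspa5 moved the other way, from 0.11 to 0.50.

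**Figure D3:**
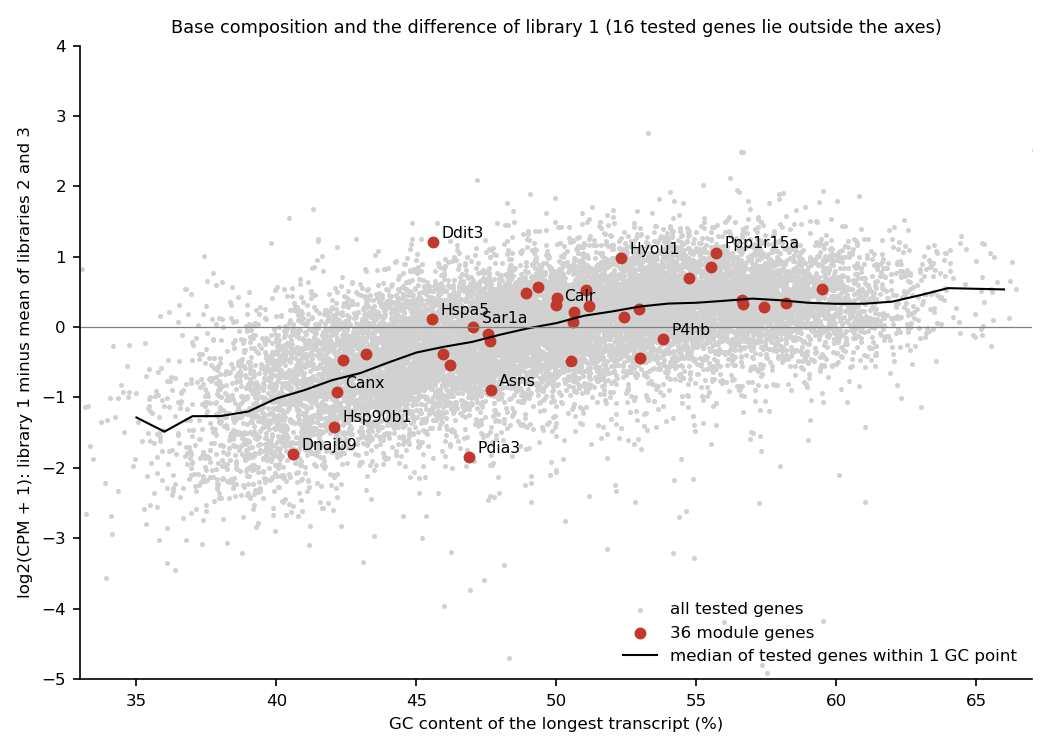
Difference of library 1 from the mean of libraries 2 and 3 on the log2(CPM + 1) scale (vertical axis) against GC content in percent (horizontal axis), for tested genes (grey) and the 36 module genes (red); the black line is the median of tested genes within 1 percentage point. Canx and Hsp90b1 lie near or moderately below the line, whereas Pdia3 at -1.84 and Ddit3 at 1.20 stand away from it.

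**Figure D4:**
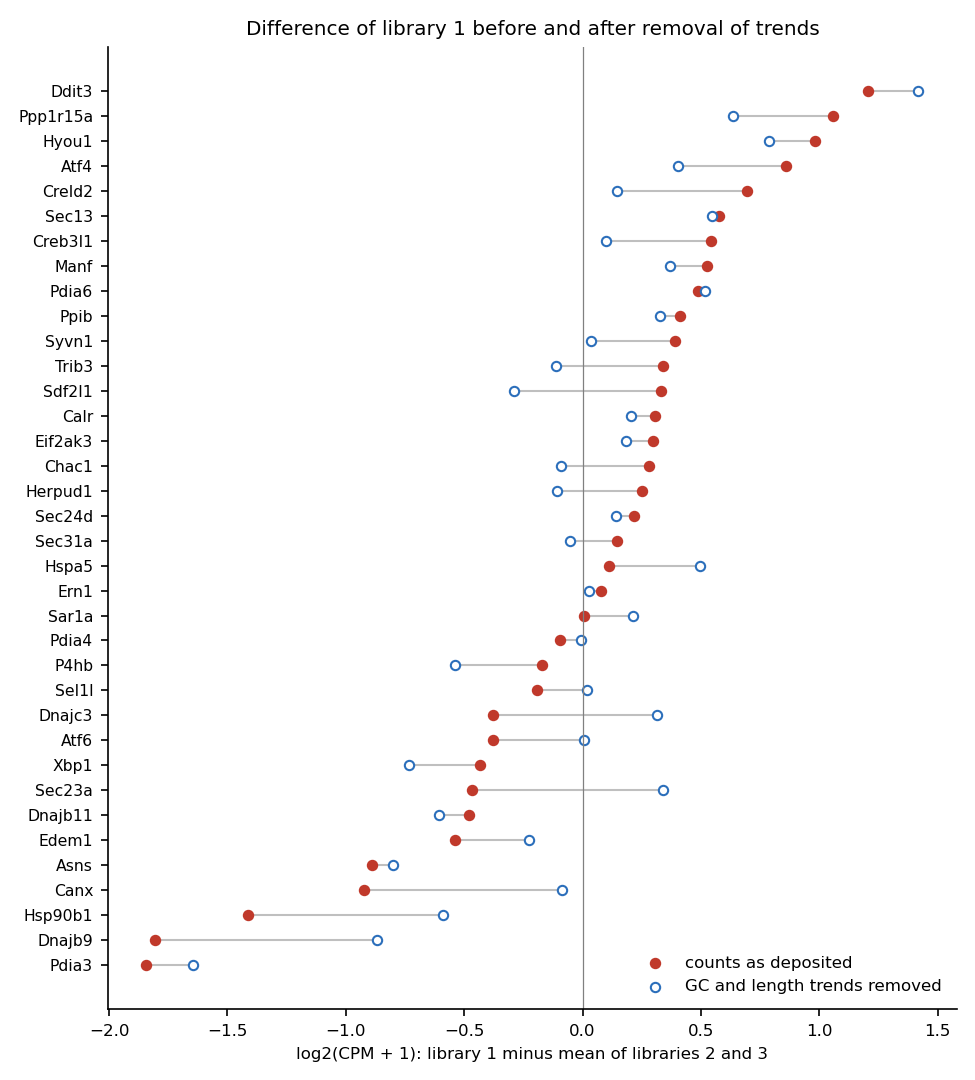
Difference of library 1 from the mean of libraries 2 and 3 on the log2(CPM + 1) scale for each of the 36 genes, as deposited (red) and after removal of GC content and length trends (open blue). Pdia3 stays at -1.64 and Ddit3 at 1.42, while Canx moves to -0.09.

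Genes with an ERSE or ERSE-II match did not share a direction. Of these 10 genes, 6 were higher in library 1 than in the mean of the others and 4 lower, from -1.41 for Hsp90b1 to 0.69 for Creld2, and with the trends removed they ran from -0.61 for Dnajb11 to 0.52 for Pdia6. Their median level was 87.1 CPM per kilobase, against 31.4 for the 22 genes with a window and neither element, and both groups spanned more than an order of magnitude.

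Beyond the 36 members, 92 genes of the same pathways from 6 lists were in the table, of which 88 passed the filter, 0 were called and 2 had an unadjusted p below 0.05 (edgeR goodness of fit). Those 2 were Fkbp2, an ER prolyl isomerase, at 214, 72.3 and 91.4 CPM, and Cebpb, at 7.98, 2.49 and 1.81 CPM. The genes named next are the 3 of each list with the highest mean CPM, and their order per kilobase can differ. Of the other sensors and proteases, Mbtps1, the protease that first cuts Atf6, was at 439, 475 and 368 CPM, Creb3 at 217, 159 and 148 CPM and Creb3l2 at 93.5, 99.7 and 113 CPM. Of the integrated stress response genes these were Slc3a2 (223, 147 and 131 CPM), Nupr1 (173, 105 and 102 CPM) and Phgdh (163, 90.0 and 98.4 CPM), all highest in library 1 like Atf4. In that list library 1 was highest for 8 of 13 genes (61.5%) and lowest for 5 (38.5%), against 39.6% and 40.4% of all tested genes. With the trends removed it was highest for 8 and lowest for 3, against 5514 and 5401 of all 14409 tested genes.

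Among other folding genes they were Fkbp10 (493, 432 and 364 CPM), a collagen chaperone, Cnpy2 (433, 248 and 252 CPM) and Ganab (261, 291 and 265 CPM), the glucosidase that trims glycans for the lectin cycle. Per kilobase Cnpy2 (179 ± 60.7) and Fkbp10 (146 ± 21.9) stood highest, followed by Sdf2 (143 ± 39.8). Os9 (504, 338 and 310 CPM), Vcp (203, 274 and 328 CPM) and Vimp (180, 133 and 152 CPM) were those of the degradation list. Sec61a1, the translocon pore (739, 485 and 554 CPM), Ssr1 (222, 349 and 316 CPM) and Spcs2 (254, 258 and 281 CPM) were those of the translocation list, in which Srp14 (194 ± 48.3) and Spcs1 (165 ± 32.5) had the highest levels per kilobase. Those of cargo handling were Surf4 (461, 415 and 448 CPM), Tmed10 (357, 255 and 269 CPM) and the KDEL receptor Kdelr1 (289, 263 and 257 CPM), which returns escaped ER chaperones. Per kilobase Kdelr1 (144 ± 9.05) and Surf4 (135 ± 7.30) stood above the rest of that list, while Tmed10 was at 50.5 ± 9.55. Mia3 (TANGO1), the procollagen receptor at ER exit sites, was chosen after its values were seen and was at 62.3, 70.9 and 65.5 CPM. Summed over lists, the ER translocation genes held 2860, 2534 and 2759 CPM and the other COPII and cargo genes 2461, 2321 and 2339 CPM.

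The 13 heat shock genes of the cytosol and mitochondria summed to 5470, 3419 and 5289 CPM, lowest in library 2. The sum of the members in CPM was also lowest there, but their share of gene counts was lowest in library 1 (1.18%). Hsp90ab1, Hspa8 and Hsp90aa1 had the highest levels both in CPM and per kilobase, with Hsp90ab1 at 2651, 1288 and 2124 CPM, Hspa8 at 1442, 945 and 1401 CPM and Hsp90aa1 at 657, 481 and 716 CPM. None of the 13 was called, and 2, Dnaja1 and Hspa1b, had an unadjusted p below 0.05 (edgeR goodness of fit). Immediate early genes, which dissociation of tissue is known to induce, summed to 10566, 6146 and 5693 CPM. They were highest in library 1 for 11 of 12 genes (91.7%), against 39.6% of all tested genes. Their median GC content was 55.8%, against 49.8% over tested genes. Fos was at 3597, 2312 and 2351 CPM, Nr4a1 at 1990, 1137 and 899.5 CPM and Ier3 at 2014, 643 and 692 CPM. With the trends removed, library 1 was highest for 7 of the 12, against 5514 of all 14409 tested genes. None of the 12 was called, and Ier3 was the 1 gene with an unadjusted p below 0.05 (edgeR goodness of fit). Library 1 was highest for this list as for Ppp1r15a, Atf4 and Ddit3, and its part in their values was not tested.

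Markers of other cell types also differed between libraries. The 6 macrophage and microglia genes summed to 15.1, 234 and 664 CPM, with 5 of 6 called (C1qa, C1qb, C1qc, Csf1r and Lyz2), and the 5 choroid plexus epithelium genes to 62.8, 1634 and 2391 CPM, with 3 of 5 called (Enpp2, Kl and Kcnj13). All 11 were lowest in library 1, as were Pdia3, Hsp90b1, Dnajb9 and Canx, and their part in those values was not tested. In bulk samples, fewer cells of a type and less RNA per cell cannot be told apart. Plasma cells are rich in secretory chaperones, and the genes listed for plasma and B cells lay at unlike levels. Jchain was at 1.52, 0.0336 and 1.50 CPM, Mzb1 at 0.960, 1.68 and 1.0 CPM and Prdm1 at 3.99, 1.48 and 4.32 CPM. Higher were Ighm at 91.9, 75.1 and 87.3 CPM, Igkc at 44.8, 24.4 and 46.6 CPM and Sdc1, also an epithelial gene, at 29.3, 31.7 and 38.2 CPM. The part of plasma cells in the values of the members was not tested. Cd79a (1.21, 20.1 and 20.7 CPM) and Cd79b (0.808, 14.8 and 16.6 CPM), of B cells, were called. Mural markers summed to 3177, 2738 and 4863 CPM and Schwann cell markers to 897, 773 and 1608 CPM, both highest in library 3, as was Xbp1, and their part in its value was not tested. Endothelial cells (79.4, 60.3 and 67.6 CPM), astrocytes (43.9, 37.7 and 60.3 CPM) and neurons (66.1, 86.8 and 80.9 CPM) were low, and in no list was a marker at 0 in any library.

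**Figure D5:**
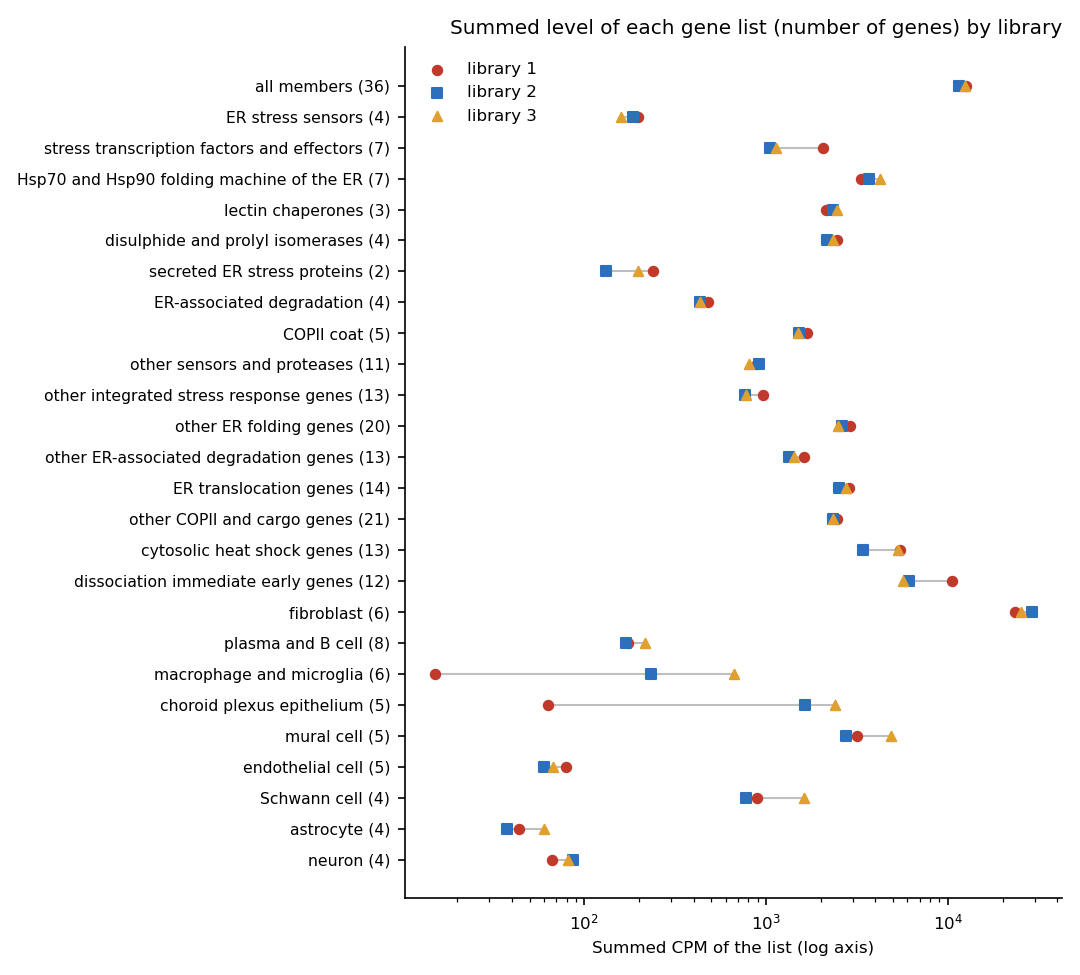
Summed CPM of each gene list in each library (log axis), with the number of genes of the list in the table; each point is 1 library. The 36 members together lie between 11499 and 12560 CPM, while the macrophage and choroid plexus lists are spread widely, from 15.1 to 664 and from 62.8 to 2391 CPM.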

How the data were processed

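Whole-number counts per gene were analysed as deposited, without normalization, for 3 libraries of 1 group. HTSeq 0.5.3, DESeq2 1.22.1 and the build mm10 are named in the submitters' processing notes; the aligner, annotation release and strand setting are not given in the sources used here. RNA was amplified with a template-switching kit, per the labels' protocols, and reads carry no molecular identifiers. The 5 counter rows (45.6%, 39.1% and 39.6% of the reads in the table) were left out of library sizes.

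Counts were scaled by TMM in edgeR 4.0.16 (R 4.3.3), filtered with filterByExpr (minimum count 10) and tested with edgeR's goodness-of-fit chi-square, using the trended dispersion and a Benjamini-Hochberg threshold of 0.05; the fit was tested on simulated data. A pseudocount of 1 CPM was added before taking log2, which shrinks the differences of low genes. Exon lengths and GC content came from GENCODE M21 (GRCm38), in which 98.9% of identifiers were found; trends were removed by loess. Promoters came from RefSeq GRCm38.p6, for 32 members. Alternatives were other size factors (DESeq2 1.42.0), filters, dispersions, pseudocounts, lengths, trend removal and leaving out each library. Every member was given a level; values in each library were required for the 2 members of each role with the highest mean CPM, those called or under 10 counts and the 8 with the largest range, and of each other list for the 3 genes with the highest mean CPM and those called. The members and lists were chosen with earlier results of these data known.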

Additional observations from a re-analysis of the deposited data

Results flagged for a closer look

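Reads that the table gives to no gene were not part of any comparison. They made up 45.6%, 39.1% and 39.6% of the reads of libraries 1, 2 and 3, above what a count of 0 allows, and the table does not tell which of them came from the genes described here.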

How the results depend on the processing

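In each of the 8 alternative fits 0 members were called, with 1 to 3 members at an unadjusted p below 0.05. The count of variable genes over all tested genes (63) was 134 with no filter on low counts and 108 with GC content and length trends removed, and ranged from 12 to 28 when each replicate was left out, which leaves fewer samples. The share of counts (1.22%) was 1.08% per kilobase of exon. The median level of the members above that of all tested genes (2.79) was 5.38 with no filter, which admits low genes, and 3.04 per kilobase. The median level over members (115 CPM) was 37.0 CPM per kilobase, a change of unit, and 111 to 130 CPM when each replicate was left out. No paired analysis was possible because all 3 libraries belong to 1 group. Trend removal for shares and median levels, and the principal transcript length, were chosen after seeing the data. Depth did not limit the members, since the lowest had 38 counts in a library; with 3 libraries, the spread between them did.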
